A study of Mus musculus with 6 samples.

Results

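The genes described here are 38 genes of the endoplasmic reticulum (ER) protein folding machinery and of the unfolded protein response, taken by symbol from the 18059 genes of each deposited table. The symbol Ero1lb was found under its current form Ero1b. All 38 passed the filter on low counts and are among the 13270 genes tested. Their RNA was sequenced from primary fibroblasts of the heart, the cells that lay down its connective tissue, of C57BL/6 mice aged 1 to 2 weeks. The cells grew in medium with 15% serum and received PDGF-DD or, as control, saline for 12 hours, and each group has 3 libraries. PDGF-DD, the dimeric form of the secreted growth factor PDGF-D, acts on the receptor PDGFRβ, and its dose is given as 20 µM. The question is how this growth factor changes transcript levels in the fibroblasts.

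The PDGF-DD group carries the genotype label PDGF-D -/- and the control group the genotype label control, while the protocols have all cells isolated from mice that lack PDGF-D globally. If the genotype labels hold, genotype and treatment cannot be told apart. Reads of Pdgfd itself were present in every library, with 69 to 82 counts under PDGF-DD and 91 to 118 in control. Pdgfd fell (log2 fold change -0.55, SE 0.14, edgeR adjusted p = 0.00245), but whole-gene counts do not show whether an edited exon was lost. Whether the 3 libraries of a group are separate cultures or animals is not stated. All p-values therefore reflect the spread among these libraries alone, which may be technical. Depth was nearly equal, between 21221114 and 21371829 estimated counts per library. Control replicate 1 was less like its group: its chi-square over genes, divided by the degrees of freedom, was 5.11 and 5.71 against the other control libraries. It was 1.90 to 2.74 for pairs of PDGF-DD libraries and 2.48 for the remaining control pair. Fibroblast markers were abundant, with a summed level of 23942 to 24152 TPM, a length-corrected level, over 10 genes under PDGF-DD and 24744 to 26798 in control; 2 of the 10 rose and 6 fell. Of the markers of other cells, 8 cardiomyocyte genes summed to 226 to 254 TPM under PDGF-DD and 316 to 339.6 in control, most of it from Tnnt2. Of these, 3 averaged under 1 TPM, with Ttn at 0.04 TPM or below and Myh7 at 0 in every PDGF-DD library and at most 0.05 TPM in control. With PDGF-DD, lists of 6 genes each summed to 137 to 139 TPM for endothelium, 70.4 to 79.9 for leukocytes, 192 to 203 for smooth muscle and pericytes and 34.8 to 37.0 for epicardium and Schwann cells. In control these sums were 138 to 151, 79.0 to 88.5, 197 to 224 and 40.9 to 45.6 TPM. Of the markers tested, 3 of 6 for cardiomyocytes fell, as did 3 of 5 for smooth muscle and pericytes, where 1 rose, and 1 of 5 for epicardium and Schwann cells. By the same test, described below, 19.1% of all tested genes rose and 17.4% fell. The smooth muscle myosin Myh11 averaged 4.57 TPM with PDGF-DD and 9.53 TPM in control, although the sums of its list overlapped. The part of these cells in the results below was not tested. In bulk RNA, fewer cells of a type and less RNA per cell cannot be told apart.

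Proteins that are secreted or inserted into membranes enter the ER through the Sec61 channel and fold there with the help of chaperones, protein disulfide isomerases and lectins. When unfolded proteins accumulate, sensors in the ER membrane start the unfolded protein response. The sensors ATF6 and IRE1 act through cleaved ATF6 and spliced XBP1, which switch on genes for chaperones and for ER-associated degradation (ERAD), the removal of misfolded proteins. The sensor PERK phosphorylates the initiation factor eIF2α, which lowers general translation and favours translation of the transcription factor ATF4. ATF4 targets include genes of amino acid supply and, through CHOP, genes linked to cell death. Fibroblasts, which secrete large amounts of collagen and fibronectin, depend heavily on this folding capacity. XBP1 splicing, ATF6 cleavage, eIF2α phosphorylation and ATF4 protein are not seen by gene counts and were not measured here.

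ATF6 is known to bind the CCACG end of the ER stress response element (ERSE), whose other end, CCAAT, is bound by the factor NF-Y. Promoter windows of 300 bases, running from 250 before to 50 after the annotated start, were found in RefSeq (build GRCm38.p6) for 33 of the 38 genes, and those of Hyou1, Hspa13, Manf, Atf6 and Sec61a1 were not among them. The ERSE was searched on both strands as CCAAT, any 9 bases, then CCACG. Of all 32851 promoter windows, 39 held it (0.119%). By gene, it was in the windows of 9 of the 33 genes, against 19 of the 10570 tested genes with a window (0.18%), the 9 included. The matches of the 9 genes are shown because the element links the chaperone genes described first. Each is written 5′ to 3′ on its own strand of the element with the CCAAT and CCACG ends in capitals.
Hspa5: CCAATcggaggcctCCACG
Hsp90b1, nearer the start: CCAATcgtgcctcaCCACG
Hsp90b1, farther from the start: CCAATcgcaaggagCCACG
Calr: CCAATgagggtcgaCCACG
Canx: CCAATcaccacgctCCACG
Pdia6: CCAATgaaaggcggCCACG
Ero1b: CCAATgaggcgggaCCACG
Dnajc3: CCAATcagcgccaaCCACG
Creld2: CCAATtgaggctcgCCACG
Syvn1: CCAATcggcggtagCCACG

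Of these 9 genes, 8 belong to the chaperone and folding genes and Syvn1 to ERAD. None of the 8 genes of the PERK/ATF4 group held the ERSE letters. The 250 bases before the start of Hspa5, on the plus strand at chr2:34771840-34772089, show the element close to the start, from base 65 to base 47 before it, again with its fixed bases in capitals.
Hspa5: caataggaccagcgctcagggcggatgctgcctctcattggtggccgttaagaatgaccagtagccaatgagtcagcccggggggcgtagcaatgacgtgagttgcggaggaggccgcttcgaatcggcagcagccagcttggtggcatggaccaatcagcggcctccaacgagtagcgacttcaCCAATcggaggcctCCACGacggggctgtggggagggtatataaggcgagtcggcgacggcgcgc

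The element bound by ATF4 together with C/EBP factors was searched as TGATGNAA on both strands, and it was in 1304 of 32851 windows (3.97%). By gene, 295 of the 10570 tested genes with a window held it (2.79%). Of the 33 genes, 5 held it: Trib3 (after the start), Chac1, Asns and Vldlr of the PERK/ATF4 group, and Herpud1. A second, shorter chaperone element, ERSE-II, was searched on both strands as ATTGG, any 1 base, then CCACG. It was in 12 of all windows (0.0365%) and in those of 9 of the 10570 tested genes (0.0851%). Among these genes were Herpud1 and, after the start, Dnajb11. The last 5 bases of ERSE-II are also the last 5 of the ERSE. The XBP1-type element TGACGTGG was in 0.676% of all windows, in those of 0.993% of the tested genes, and in 0 of the 33. Herpud1, a gene of ERAD, thus held letters of both branches, and its 250 bases before the start, on the plus strand at chr8:94386179-94386428, are shown for that reason. The capitals mark the ATF4-type element, which reads on the opposite strand, and after it ERSE-II.
Herpud1: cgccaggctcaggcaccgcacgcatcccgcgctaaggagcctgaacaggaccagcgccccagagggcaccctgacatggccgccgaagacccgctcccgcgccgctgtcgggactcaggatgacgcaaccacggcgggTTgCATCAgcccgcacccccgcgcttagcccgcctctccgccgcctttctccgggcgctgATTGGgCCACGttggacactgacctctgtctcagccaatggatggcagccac

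**Figure D1:**
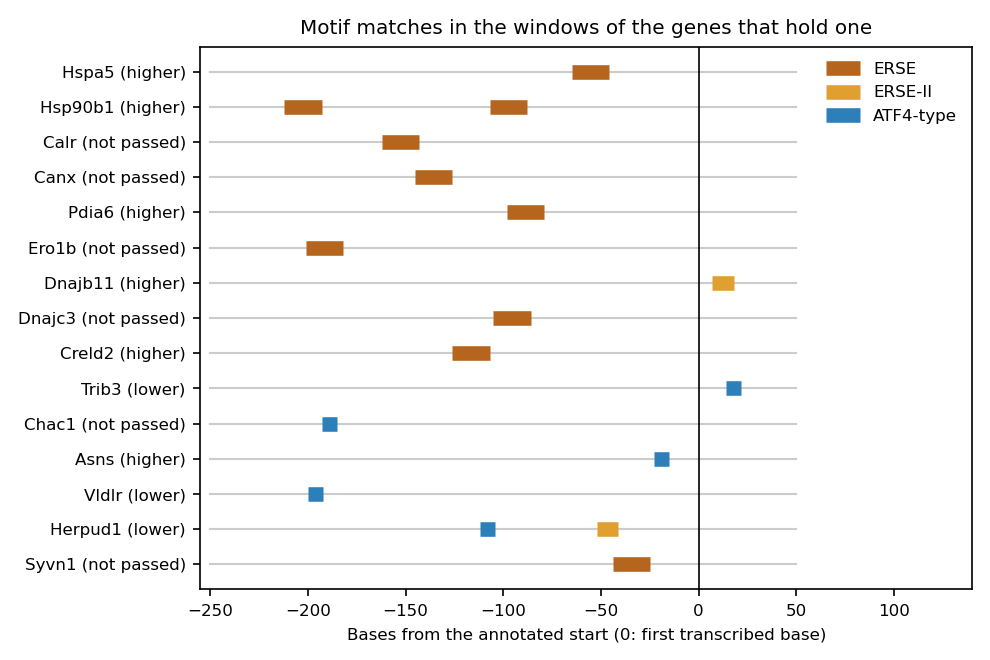
Position of each motif match (coloured bars) relative to the annotated start in the windows of the 15 genes that hold one, with the outcome of the PDGF-DD against control test beside each gene name; grey lines are the windows, from 250 bases before to 50 after the start. The ERSE matches lie between 212 and 26 bases before the start, and 4 of the 9 genes that hold one rose, where 19.1% of all tested genes did.

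With PDGF-DD 12 of 19 chaperone and folding genes rose and 0 fell, while 3 of 8 PERK/ATF4 genes fell and 1 rose. Of 7 ERAD and translocation genes 2 rose and 2 fell. Both falls were among the 4 ERAD genes, where 0 rose, and the call of Herpud1 was lost in 8 of 13 alternatives. Outside the set 11 of 30 ATF4 genes rose and 4 fell. Of 34 ERAD and translocation genes there, 18 rose and 0 fell. Divided after the values were seen, 3 of the 13 ERAD genes among them rose and 0 fell. All changes of the 38 genes were small. Of the 38 genes, 17 rose, 5 fell and 16 did not pass the test (quasi-likelihood test of edgeR, with the p-value adjusted by Benjamini-Hochberg over 13270 genes and a threshold of 0.05). In all, 22 of 38 genes passed, where 36.5% of all tested genes did. Those 22 had a median absolute log2 fold change of 0.19, against 0.28 for all tested genes that passed. Each of the 38 had at least 126 counts in every library, and the tested genes include lower ones. Shares over all tested genes were not matched for read number. Among all tested genes 19.1% rose and 17.4% fell, and their median log2 fold change was -0.01, against 0.09 for the 38 genes. Hyou1 rose the most (log2 fold change 0.34) and Trib3 fell the most (-0.36). Values of the groups did not overlap for 25 of the 38 genes, where 47.1% of all tested genes showed no overlap. For each single gene with no overlap the exact two-sided permutation test gives p = 0.1, the smallest value that 3 against 3 libraries allow.

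The ER folding genes and the PERK/ATF4 genes had medians of opposite sign. Of the 19 folding genes 12 rose and 0 fell, with a median log2 fold change of 0.14. Of the 8 PERK/ATF4 genes 1 rose and 3 fell, with a median of -0.10. The remaining 11 genes were 4 sensor genes, of which 2 rose and 0 fell, and 7 genes of ERAD and translocation, of which 2 rose and 2 fell. Without control replicate 1, 13 of the folding genes rose and 0 fell, and 1 of the PERK/ATF4 genes rose and 3 fell. The PERK/ATF4 median was -0.052 without PDGF-DD replicate 3. The difference between the groups of genes was not tested as such.

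**Figure D2:**
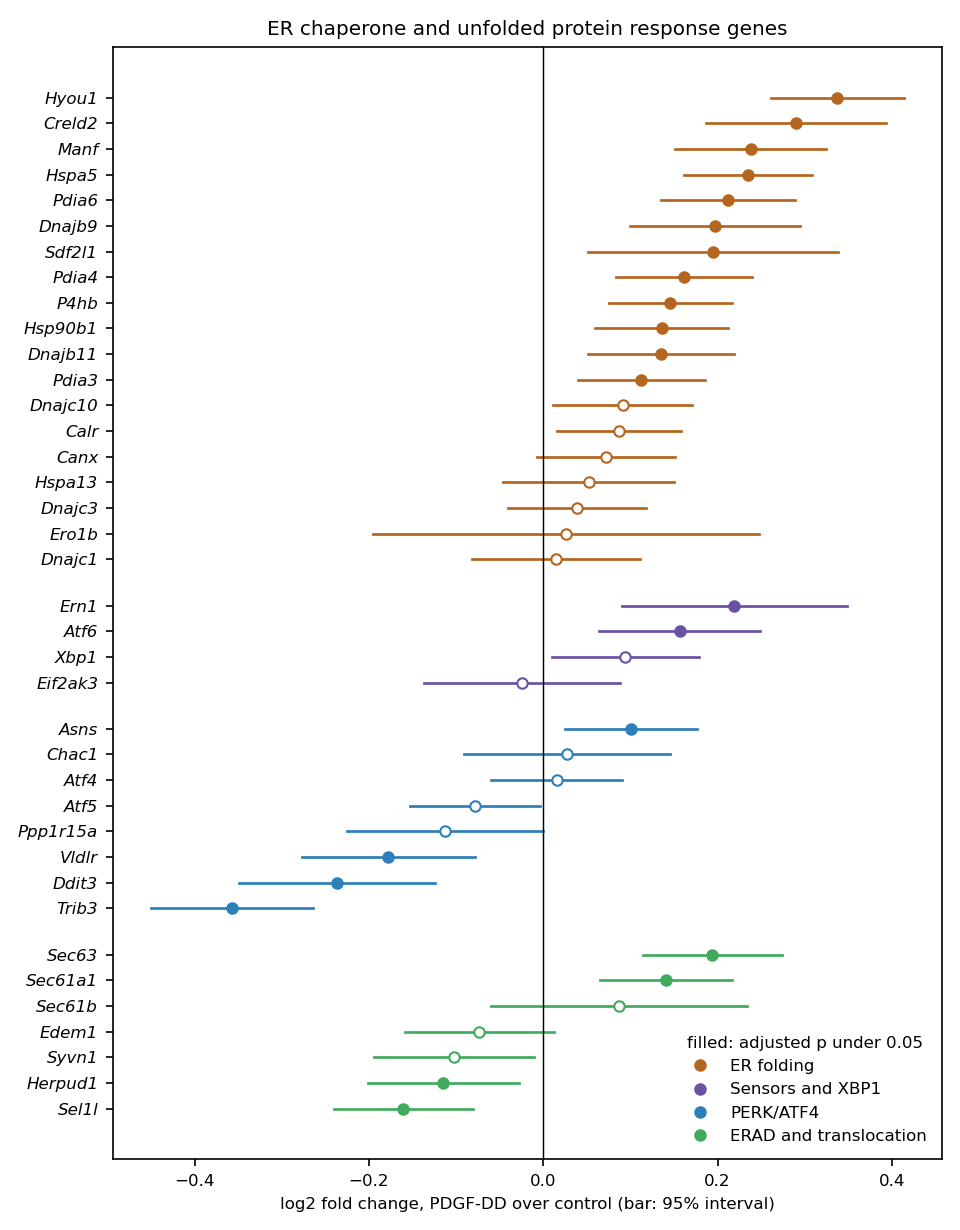
Log2 fold change of each of the 38 genes (circles, PDGF-DD over control, 3 libraries each) with its 95% interval (lines), ordered by size within each role group. Filled circles passed the test at an adjusted p under 0.05; all 19 folding genes lie right of 0 (Dnajc1 and Ero1b, which did not pass, turn negative in 2 alternatives each), and the lowest values, down to -0.36 for Trib3, are in the PERK/ATF4 group.

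The central chaperones of the ER lumen are the HSP70 protein BiP (Hspa5), which also holds the stress sensors inactive, its large partner and nucleotide exchange factor GRP170 (Hyou1), and the HSP90 protein GRP94 (Hsp90b1). Hspa5 (Entrez gene 14828) stood at 1261, 1277 and 1303 CPM, reads scaled to a common library size, in the PDGF-DD libraries and at 1077, 1118 and 1068 CPM in control. Every PDGF-DD library was above every control library, and the means were 1280.3 ± 21.2 and 1088 ± 26.8 CPM (SD, n = 3 each), with log2 fold change 0.24 (SE 0.04, edgeR adjusted p = 8.4e-06). This is a rise of 17.7%, with a 95% interval of 11.9% to 23.9%.

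Hyou1 (Entrez gene 12282) stood at 343, 351 and 359 CPM in the PDGF-DD libraries and at 276, 278 and 279.5 CPM in control. The control libraries were within a few CPM of each other, and the rise of 26.4% (log2 fold change 0.34, edgeR adjusted p = 6.84e-08, SE 0.04) was the largest of the 38 genes. Hsp90b1 (Entrez gene 22027) stood at 1150.2, 1185 and 1214 CPM with PDGF-DD and at 1072, 1115 and 1044 CPM in control, which do not overlap. It rose by 9.87% (log2 fold change 0.14, SE 0.04, edgeR adjusted p = 0.00515). Hspa13, a less known microsomal HSP70 relative, stood at 71.4 ± 1.02 CPM with PDGF-DD and 68.9 ± 3.91 CPM in control and did not pass (edgeR adjusted p = 0.423). Control replicate 2 was the highest of all 6 libraries.

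Calreticulin (Calr) and calnexin (Canx) are the lectin chaperones that hold glycoproteins until they are folded. Calr stood at 1532, 1574 and 1597 CPM with PDGF-DD and at 1469, 1483 and 1476 CPM in control. Although its groups did not overlap, it missed the threshold (log2 fold change 0.09, edgeR adjusted p = 0.0501). It passed without control replicate 1 (0.0479) or PDGF-DD replicate 1 (0.0412), with total count scaling (0.0242) and in DESeq2 (0.022), within a range of 0.022 to 0.21 over all alternatives. Canx stood at 618 ± 20.0 CPM with PDGF-DD and 588 ± 17.9 CPM in control, with overlap, and did not pass (edgeR adjusted p = 0.151).

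Protein disulfide isomerases form and rearrange the disulfide bonds of secreted proteins. In the set Pdia3, Pdia4, Pdia6 and P4hb rose, while the related reductase Dnajc10, described with the J proteins, did not pass. Related genes outside the set, named after their values were seen, were mixed. Erp44 and Tmx1 rose, and Pdia5, Erp29, Txndc5, Txndc11 and Tmx3 did not pass. Pdia6, which also acts on the sensors of the response, stood at 459, 461 and 475 CPM in the PDGF-DD libraries and at 412, 402 and 391 CPM in control. Its groups were well apart (log2 fold change 0.21, SE 0.04, edgeR adjusted p = 6.34e-05). P4hb, which is protein disulfide isomerase itself and a subunit of the collagen prolyl hydroxylase, stood at 1534, 1535 and 1540.3 CPM with PDGF-DD and at 1371, 1412 and 1384 CPM in control. It rose by 10.6% (log2 fold change 0.15, SE 0.03, edgeR adjusted p = 0.00141). Its PDGF-DD libraries were nearly identical. Pdia4, a larger member of the family, had 243 ± 2.47 CPM under PDGF-DD and 217 ± 5.60 CPM in control (edgeR adjusted p = 0.0014). Pdia3, the partner of calreticulin and calnexin, had 1036 ± 10.3 CPM with PDGF-DD and 958 ± 19.03 CPM in control (edgeR adjusted p = 0.0134). Its call was lost without control replicate 3 (0.0649), with the replicate block (0.0692) and in limma on the deposited TPM (0.0799). The alternatives ranged from 0.00293 to 0.0799. Ero1b, an oxidase that recharges these enzymes, was the lowest gene of the set, with 126 to 155 counts per library, and did not pass (edgeR adjusted p = 0.873). Its interval, from -12.7% to 18.7%, is the widest among the folding genes, and its estimate of 0.03 on the log2 scale turned to -0.012 without PDGF-DD replicate 3 and to -0.049 without control replicate 3.

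J proteins recruit BiP to its clients, and 2 of the 5 among the folding genes rose. Dnajb9 (ERdj4), a target of spliced XBP1 that keeps IRE1 inactive, stood at 61.3, 58.2 and 59.1 CPM in the PDGF-DD libraries and at 53.3, 51.5 and 51.01 CPM in control, with no overlap. It rose by 14.6% (log2 fold change 0.20, SE 0.05, edgeR adjusted p = 0.00172). Dnajb11 (ERdj3), which is also secreted, had 137 ± 0.81 CPM with PDGF-DD and 125 ± 4.88 CPM in control (log2 fold change 0.14, edgeR adjusted p = 0.0102). That call was lost without control replicate 3 (0.0588) and in limma on TPM (0.0622), within a range of 0.00549 to 0.0622.

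Among the other J proteins, Dnajc10 (ERdj5), a reductase that works with ERAD, had 196, 194 and 201 CPM with PDGF-DD and 183, 191 and 181 CPM in control. Its groups did not overlap but it did not pass (edgeR adjusted p = 0.0663). It did pass when either PDGF-DD replicate 2 (0.0481) or control replicate 2 (0.0482) was left out, and with total count scaling (0.0376), the highest value over the alternatives being 0.252. Dnajc3 (p58IPK), a co-chaperone, and Dnajc1 had overlapping groups and log2 fold changes of 0.04 and 0.01. The estimate for Dnajc1 turned to -0.0057 under upper-quartile scaling and to -0.020 without control replicate 1, without passing in either.

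Creld2, Manf and Sdf2l1 encode small ER proteins that are known to rise strongly in ER stress, and all rose here by small amounts. Creld2 stood at 61.2, 62.4 and 63.7 CPM in the PDGF-DD libraries and at 54.5, 49.0 and 49.7 CPM in control. It was the gene with the second largest rise, of 22.3% (log2 fold change 0.29, SE 0.05, edgeR adjusted p = 4.88e-05). Manf, a secreted factor that binds BiP, stood at 224, 228 and 234 CPM with PDGF-DD and at 206, 184 and 192 CPM in control, which do not overlap (log2 fold change 0.24, SE 0.04, edgeR adjusted p = 6.33e-05). Control replicate 1 was the highest control library for both genes. Sdf2l1, which works with Dnajb11, stood at 23.4, 27.0 and 26.6 CPM with PDGF-DD and at 23.6, 22.6 and 21.1 CPM in control. Here PDGF-DD replicate 1 lay within the control range, and the call (log2 fold change 0.19, edgeR adjusted p = 0.0297) was lost in 7 of 13 alternatives. Among these were leaving out either of PDGF-DD replicates 2 (0.105) and 3 (0.115) or of control replicates 2 (0.0633) and 3 (0.135), and the range was 0.00782 to 0.135.

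**Figure D3:**
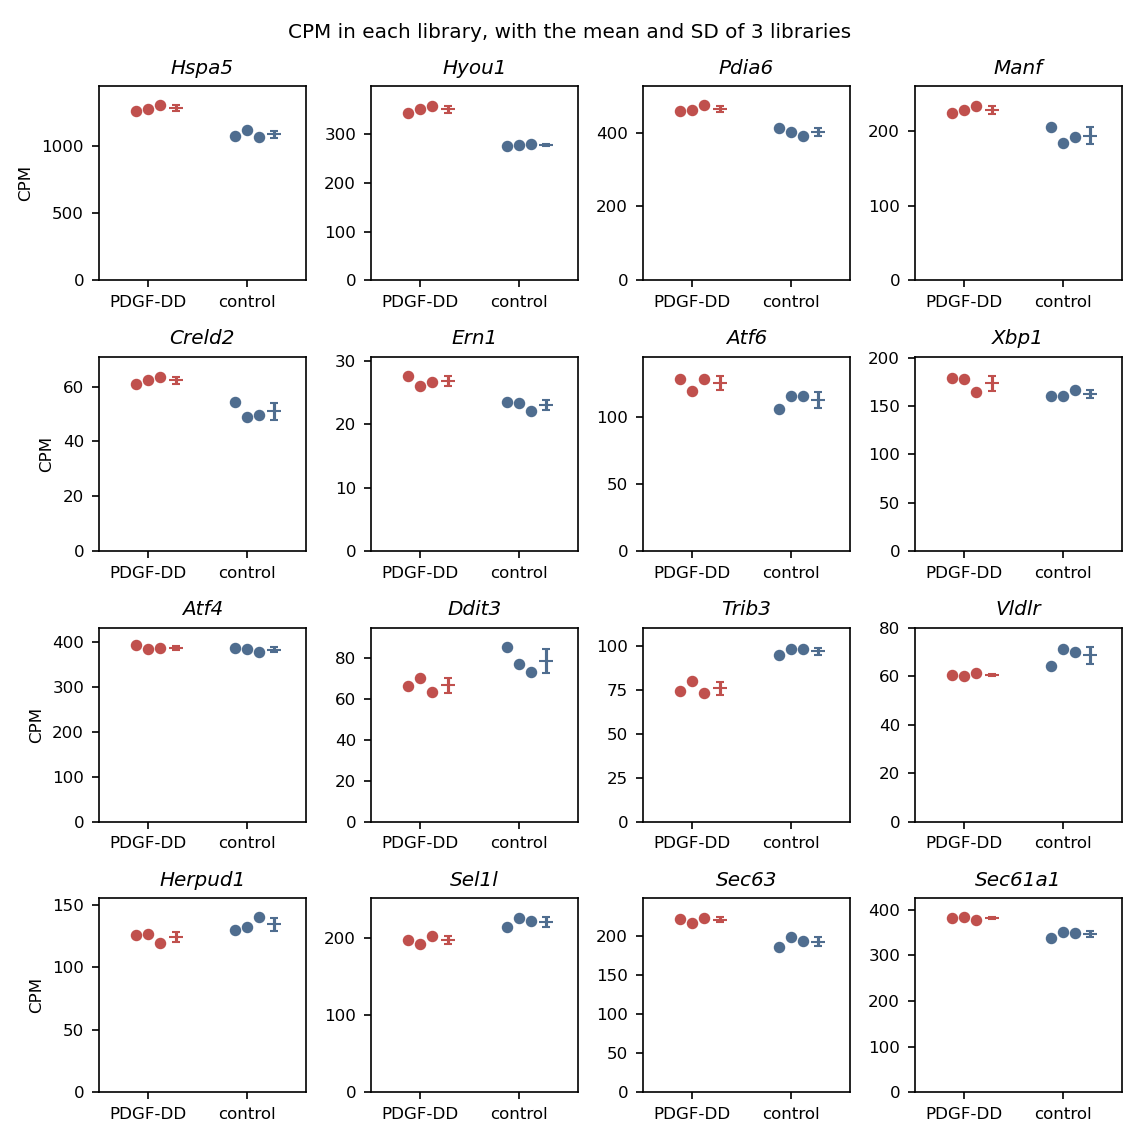
CPM in each library (points) for 16 genes, PDGF-DD left of control, with the mean and SD of 3 libraries beside the points; every axis starts at 0. The groups are apart in every panel except those of Xbp1 and Atf4, and the distance between them is small relative to the level, from 26.4% for Hyou1 to -21.9% for Trib3. The 16 genes are a selection: of all 38 genes 25 showed no overlap, as did 47.1% of all tested genes.

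Of the sensor genes and Xbp1, Ern1 and Atf6 rose and the other two did not pass. Ern1, which encodes IRE1α, the kinase and RNase that splices Xbp1 transcripts, stood at 27.6, 26.0 and 26.6 CPM with PDGF-DD and at 23.5, 23.3 and 22.1 CPM in control. It rose by 16.4% (log2 fold change 0.22, SE 0.06, edgeR adjusted p = 0.00724). Atf6 stood at 128, 119 and 128 CPM with PDGF-DD and at 106, 115 and 116 CPM in control, which do not overlap. Its rise of 11.5% (log2 fold change 0.16, edgeR adjusted p = 0.00736) was lost only in limma on TPM (0.101), the lowest value over the alternatives being 0.00143.

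Xbp1, itself a target of ATF6, stood at 179, 178 and 165 CPM with PDGF-DD and at 161, 160.2 and 167 CPM in control. PDGF-DD replicate 3 lay within the control range, and Xbp1 did not pass (log2 fold change 0.09, edgeR adjusted p = 0.0746). It passed without that library (0.0212) and with total count scaling (0.0446), within a range of 0.0212 to 0.212. Eif2ak3, which encodes PERK, had 37.2 ± 1.49 CPM with PDGF-DD and 37.8 ± 1.24 CPM in control. The groups overlapped and the 95% interval runs from -9.06% to 6.26% (edgeR adjusted p = 0.759). The estimate of -0.02 on the log2 scale turned to 0.0051 without PDGF-DD replicate 3.

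In the PERK/ATF4 group, the Atf4 transcript did not pass the test while Trib3, Ddit3 and Vldlr fell. Atf4 stood at 391, 383 and 385 CPM in the PDGF-DD libraries and at 386, 384 and 377 CPM in control, with overlap. The 95% interval of its difference runs from -4.05% to 6.51% (edgeR adjusted p = 0.773), and its estimate of 0.02 on the log2 scale turned to -0.0044 under upper-quartile scaling. Its relative Atf5 stood at 383, 384 and 377 CPM with PDGF-DD and at 403, 398 and 406 CPM in control. Although these do not overlap, Atf5 did not pass (log2 fold change -0.08, edgeR adjusted p = 0.0966). Under upper-quartile scaling it did (0.0341, the highest value over the alternatives being 0.307).

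Trib3, a pseudokinase induced by ATF4 and CHOP that restrains ATF4 in turn, stood at 74.3, 80.0 and 72.9 CPM with PDGF-DD and at 94.7, 98.0 and 98.3 CPM in control. It fell by 21.9%, the most of the 5 genes that fell (log2 fold change -0.36, SE 0.05, edgeR adjusted p = 6.17e-07), with a 95% interval of -26.8% to -16.7%. Ddit3, which encodes CHOP, stood at 66.4, 70.3 and 63.3 CPM with PDGF-DD and at 85.2, 77.0 and 73.4 CPM in control. The groups did not overlap, and Ddit3 fell by 15.1% (log2 fold change -0.24, SE 0.05, edgeR adjusted p = 0.00135). Its last bases overlap those of the tRNA synthetase gene Mars on the opposite strand, over 68 bases of the GENCODE annotation, so reads there may belong to either gene.

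Vldlr, a lipoprotein receptor induced through PERK and ATF4, stood at 60.4, 60.3 and 61.1 CPM with PDGF-DD and at 64.4, 71.1 and 70.2 CPM in control. It fell by 11.6% (log2 fold change -0.18, SE 0.05, edgeR adjusted p = 0.00466), a call lost in limma on TPM (0.0634) with a lowest value of 0.000428 over the alternatives. Asns, asparagine synthetase, went the other way, with 307, 302 and 297 CPM under PDGF-DD and 283, 281 and 281 CPM in control. The rise of 7.23% (edgeR adjusted p = 0.0338) did not overlap control but was lost in 6 of 13 alternatives. These included leaving out PDGF-DD replicate 1 (0.0956) or either of control replicates 2 (0.0795) and 3 (0.0711), within a range of 0.0177 to 0.137.

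Ppp1r15a (GADD34), which brings a phosphatase to eIF2α and so ends the PERK signal, had 56.7 ± 4.78 CPM with PDGF-DD and 61.3 ± 1.90 CPM in control. Its groups overlapped and it did not pass (edgeR adjusted p = 0.112), although it did without PDGF-DD replicate 2 (0.0283, the highest value over the alternatives being 0.616). Chac1, which degrades glutathione, had 48.2 ± 4.41 CPM with PDGF-DD and 47.3 ± 0.88 CPM in control. Its estimate of 0.03 on the log2 scale turned to -0.028 without PDGF-DD replicate 2, and it passed in none of the alternatives.

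The role group of ERAD and translocation holds 7 genes, of which 2 rose and 2 fell, where 19.1% of all tested genes rose and 17.4% fell. Of its 4 ERAD genes 0 rose and 2 fell, and of its 3 translocation genes 2 rose and 0 fell. Sel1l, the partner that stabilizes the ubiquitin ligase HRD1, stood at 198, 193 and 203 CPM in the PDGF-DD libraries and at 214, 226 and 222 CPM in control. It fell by 10.5% (log2 fold change -0.16, SE 0.04, edgeR adjusted p = 0.00187). Syvn1, which encodes HRD1 itself, stood at 81.9, 81.2 and 78.2 CPM with PDGF-DD and at 84.4, 84.8 and 89.8 CPM in control. Its groups did not overlap, but it did not pass (log2 fold change -0.10, edgeR adjusted p = 0.0733). It passed without control replicate 1 (0.0452) and with upper-quartile scaling (0.0312), the highest value over the alternatives being 0.302.

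Herpud1, an ERAD adaptor whose promoter is shown above, stood at 126, 127 and 119 CPM with PDGF-DD and at 130.2, 133 and 140.2 CPM in control. It fell by 7.65% (log2 fold change -0.11, edgeR adjusted p = 0.0339), a call lost in 8 of 13 alternatives. Among these were leaving out either of PDGF-DD replicates 1 (0.0823) and 3 (0.228) or of control replicates 2 (0.0566) and 3 (0.167), and the lowest value was 0.0126. Edem1, a lectin that passes misfolded glycoproteins to ERAD, had 127 ± 0.69 CPM with PDGF-DD and 134 ± 6.37 CPM in control and did not pass (edgeR adjusted p = 0.179). Without control replicate 1 it passed as lower (0.0352, the highest value over the alternatives being 0.534).

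Of the translocation genes, Sec63, a J protein of the channel that draws on BiP, stood at 221, 217 and 224 CPM with PDGF-DD and at 187, 199 and 194 CPM in control. It rose by 14.4% (log2 fold change 0.19, SE 0.04, edgeR adjusted p = 0.000249). Sec61a1, the pore subunit, stood at 382, 383 and 378 CPM with PDGF-DD and at 338, 351 and 348 CPM in control, and rose by 10.3% (edgeR adjusted p = 0.00355). Sec61b, a small subunit of the same channel, stood at 87.0, 95.04 and 88.0 CPM with PDGF-DD and at 95.3, 79.9 and 79.0 CPM in control. Its overlap came from control replicate 1 alone: it did not pass with that library (edgeR adjusted p = 0.354) and passed as higher without it (log2 fold change 0.18, adjusted p = 0.00333), while the alternatives reached up to 0.706.

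Levels of the genes can be compared with each other per transcript length, in TPM. Calr was the most abundant, with 1878 ± 39.9 TPM under PDGF-DD and 1780.0 ± 58.2 TPM in control, followed by P4hb, Hspa5, Hsp90b1, Pdia3 and Manf. Atf4 and Atf5 followed, above the other folding genes, at 581 and 513 TPM with PDGF-DD and 576 and 545 TPM in control. The sensor genes Atf6, Eif2ak3 and Ern1 were among the lowest, with 38.3, 19.3 and 15.4 TPM under PDGF-DD and 34.6, 19.6 and 13.4 TPM in control. The 19 folding genes summed to 8671, 8588 and 8916 TPM in the PDGF-DD libraries and to 7669, 8134 and 7935 TPM in control. The sum was thus higher in every PDGF-DD library, and it made up between 0.767% and 0.892% of the summed TPM of all genes. The 8 PERK/ATF4 genes summed to 1872, 1849 and 1828 TPM with PDGF-DD and to 1876, 1947 and 1929 TPM in control, so every PDGF-DD library was below every control library, by little for control replicate 1. Control replicate 1 stood lower in TPM than in CPM. Calr, for example, had 1469, 1483 and 1476 CPM in the control libraries but 1713, 1818 and 1809 TPM. The sums were not adjusted for this difference of scale.

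**Figure D4:**
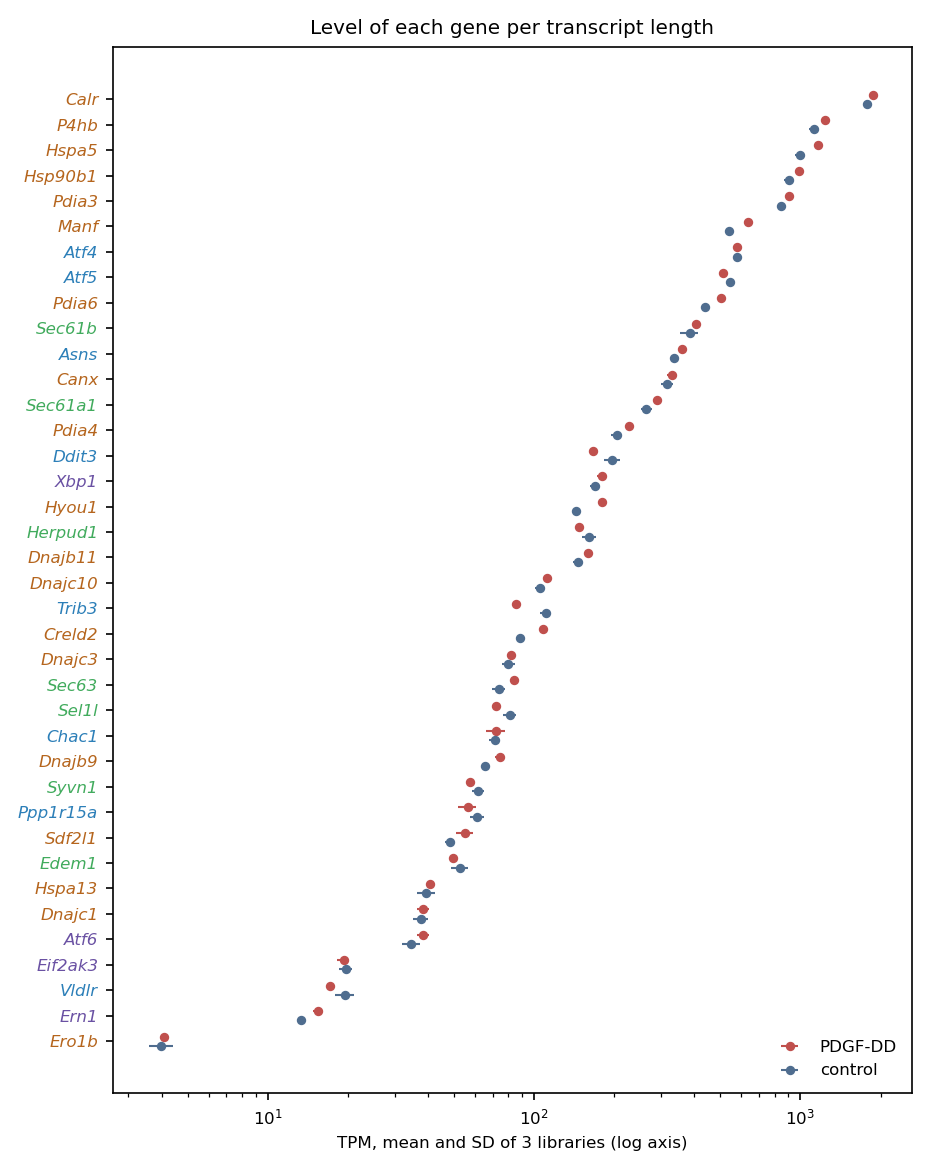
Level of each of the 38 genes in TPM (log axis), as the mean and SD of 3 PDGF-DD libraries (red, upper) and 3 control libraries (blue, lower), ordered by level. Gene names are coloured by role: brown for folding, purple for sensors and Xbp1, blue for PERK/ATF4, green for ERAD and translocation; levels run from about 4 TPM for Ero1b (4.09 with PDGF-DD, 3.99 in control) to 1878 TPM for Calr.

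Genes rose both with and without the ERSE letters, and 19.1% of all tested genes rose and 17.4% fell. The difference between genes with and without a match was not tested. Of the 8 folding genes with a match, Hspa5, Hsp90b1, Pdia6 and Creld2 rose and Calr, Canx, Ero1b and Dnajc3 did not pass. Of the 8 folding genes whose window held no ERSE match, 6 rose and 2 did not pass. Among the 6 is Dnajb11, whose window holds ERSE-II. The 3 folding genes without a window are not in these counts: Hyou1 and Manf rose and Hspa13 did not pass. Syvn1, the ERAD gene with a match, did not pass and had a negative estimate. Genes with the ATF4-type letters went in each direction: Trib3, Vldlr and Herpud1 fell, Asns rose and Chac1 did not pass. These counts describe letters in a window and say nothing of binding.

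Other genes of the pathway were taken from 4 further lists. Their counts stand beside shares of 19.1% higher and 17.4% lower among all tested genes. Of 34 tested genes of translocation and ERAD outside the set, 18 rose and 0 fell, with a median log2 fold change of 0.12. Divided after the values were seen, they were 21 translocation genes, of which 15 rose (median 0.16), and 13 ERAD genes, of which 3 rose and 7 had negative estimates (median -0.02). The leading genes act at entry into the ER: Spcs3, a subunit of the signal peptidase, had 403 ± 7.31 CPM with PDGF-DD and 319.5 ± 14.3 CPM in control (log2 fold change 0.34, edgeR adjusted p = 2.03e-07). Ssr2 and Ssr1, which encode subunits of the translocon-associated TRAP complex, rose by log2 fold changes of 0.30 and 0.27, and Srprb, a subunit of the signal recognition particle receptor, by 0.32. Of 30 further genes of ER folding and glycosylation, 8 rose and 0 fell, with a median of 0.07. Rpn1 and Stt3a, subunits of the oligosaccharyltransferase, rose by 0.24 and 0.19 on the log2 scale. Mogs, the glucosidase that trims the new glycan, rose by 0.30 and Cnpy3, a co-chaperone of GRP94, by 0.18.

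Of 30 genes of ATF4 and the integrated stress response outside the set 11 rose and 4 fell, with a median log2 fold change of 0.02. Among all tested genes 19.1% rose and 17.4% fell. Within the set 1 of 8 rose and 3 fell, with a median of -0.10, and the difference between these lists was not tested. Psat1, an enzyme of serine synthesis, had 176 ± 1.28 CPM with PDGF-DD and 97.8 ± 4.86 CPM in control (log2 fold change 0.85, edgeR adjusted p = 3.09e-14). Cth, which makes cysteine, rose by 0.45, and the mitochondrial folate enzymes Shmt2 and Mthfd2 by 0.28 and 0.21. The 4 genes that fell, named after their values were seen, were Fgf21, Cebpb, Ddit4 and Nupr1, with log2 fold changes of -0.99, -0.16, -0.14 and -0.13. Fgf21, a stress hormone, was very low, with 0.58 ± 0.07 CPM under PDGF-DD and 1.148 ± 0.32 CPM in control.

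Among 22 further factors of the response and of eIF2 control, 7 rose and 2 fell, with a median of 0.07. The shares over all tested genes were 19.1% and 17.4%. Eif2s1, which encodes the eIF2α subunit that PERK phosphorylates, had 141 ± 4.15 CPM with PDGF-DD and 113 ± 8.96 CPM in control (log2 fold change 0.32, edgeR adjusted p = 1.84e-05). Eif2b3 and Eif2b1, subunits of the factor that recharges eIF2, rose by 0.37 and 0.25. Nfe2l1, an ER-bound transcription factor of proteasome genes, fell by 0.26 on the log2 scale (edgeR adjusted p = 8.52e-06). The other fall was that of Mbtps1, the site-1 protease that cleaves ATF6, which fell by 0.10 on the log2 scale (edgeR adjusted p = 0.0479) and is named after its value was seen.

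**Figure D5:**
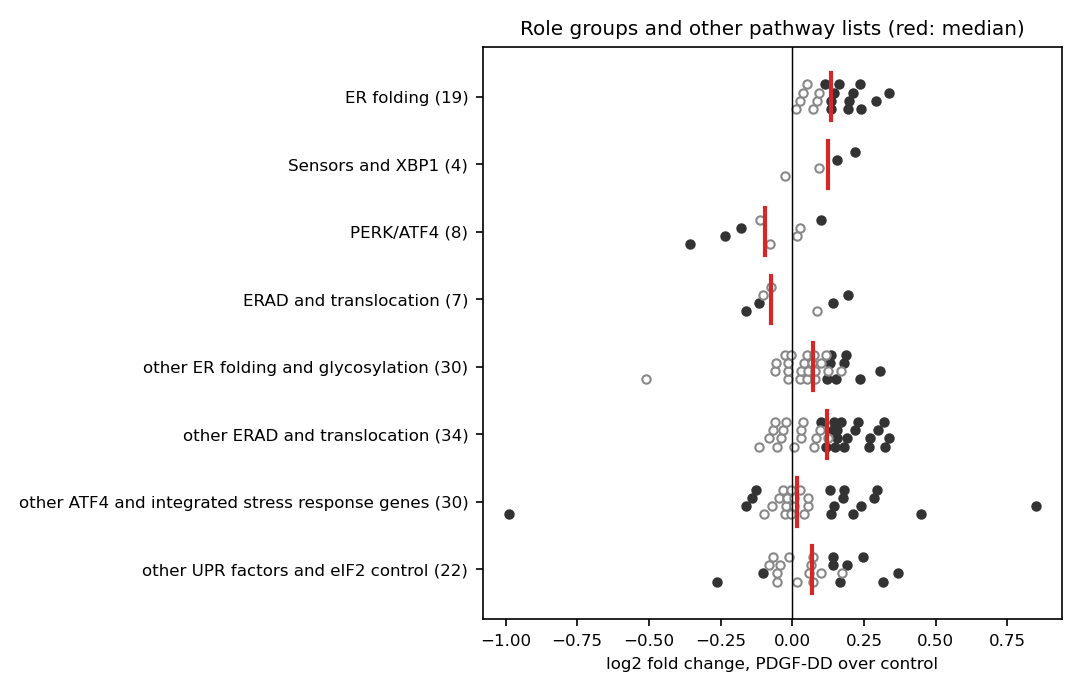
Log2 fold change (PDGF-DD over control) of every tested gene in the 4 role groups of the set and in 4 other pathway lists, with the number of genes in brackets and the median as a red line. Filled points passed the test at an adjusted p under 0.05. Medians in the set are 0.14 for ER folding, 0.13 for sensors and Xbp1, -0.10 for PERK/ATF4 and -0.07 for ERAD and translocation. In the other lists they are 0.07 for folding and glycosylation, 0.02 for ATF4 genes and 0.07 for factors and eIF2 control. For the other ERAD and translocation genes the median is 0.12 (0.16 for translocation and -0.02 for ERAD, divided after the values were seen).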

How the data were processed

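Poly(A) RNA was selected with oligo(dT), copied from random primers and read on a nanoball platform, per the labels. The submitters' processing notes name HISAT2 2.0.4, Bowtie2 2.2.5, RSEM 1.2.12, DESeq2 1.4.5 and mm9 without roles. The sources used here give neither the annotation nor the strand setting of the counting. In GENCODE M21, 14 of the 38 genes share exon bases with another gene (among them Ddit3, Hsp90b1, Manf, Atf5, Syvn1, Eif2ak3, Dnajc1, Sec61a1 and Sec63), and their values are uncertain to that extent. The authors deposited estimated counts per gene and library, not normalized, of which 31.9% to 32.7% are not whole, beside TPM and FPKM values scaled by the authors, per the file headers. FPKM was not used.

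Estimated counts were rounded, filtered with filterByExpr, scaled with TMM factors (0.995 to 1.01) and tested in edgeR 4.0.16 by its robust, two-sided quasi-likelihood F test in R 4.3.3, with Benjamini-Hochberg adjustment over all 13270 genes. CPM uses the TMM-scaled library size. Standard errors come from the log2 fold change and its F value, with 95% intervals from the matching t distribution. Alternatives used DESeq2 1.42.0, limma 3.58.1 on log2(TPM + 0.5), other scalings, other filters, a replicate block and leaving out each library. The lowest gene of the set, Ero1b, had 126 to 155 counts per library and the widest 95% interval.

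The 38 genes and all lists were chosen with earlier results of these data known. All 38 are described. From each of the 4 other lists up to 4 called genes with the smallest p are named, and others are said to have been named after their values were seen. No pairing of same-numbered libraries is stated, so the replicate block is only an alternative. Promoter sequences are those of RefSeq, build GRCm38.p6. That build differs from the submitters' build, so no other coordinates are given.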

Additional observations from a re-analysis of the deposited data

How the results depend on the processing

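Over 13 alternatives the number of the 38 genes that passed ranged from 16 in limma on TPM to 26 without control replicate 1. Of the 17 rises, 12 passed in every alternative, and of the 5 falls 3 did (Trib3, Ddit3 and Sel1l). Of the 16 genes that did not pass, 3 kept both that outcome and their direction throughout. The folding genes gave 9 to 14 rises and 0 falls in every alternative, with a median log2 fold change between 0.11 and 0.16, as long as the group was kept. Joined with the ERAD and translocation genes it gave 16 calls, 14 higher and 2 lower (Sel1l and Herpud1). Among the PERK/ATF4 genes the single rise was lost (0 rises) with upper-quartile scaling, with the replicate block and in limma on TPM, and leaving out single libraries gave 0 to 1 rises. The median of that group ranged from -0.12 to -0.052 when single libraries were left out. In limma on TPM 2 of its genes passed, and 3 of the 38 genes fell. The cause of these changes was not tested. Estimates of genes that did not pass changed sign for Ero1b (-0.012 without PDGF-DD replicate 3, -0.049 without control replicate 3, and up to 0.082 leaving out another library), Dnajc1 (-0.0057 with upper-quartile scaling, -0.020 without control replicate 1, up to 0.058), Eif2ak3 (0.0051 without PDGF-DD replicate 3, down to -0.049), Atf4 (-0.0044 with upper-quartile scaling) and Chac1 (-0.028 without PDGF-DD replicate 2, up to 0.10). Upper-quartile scaling moved the median of all genes by -0.02, and the split of calls over all genes was 2244 higher and 2636 lower, against 2535 and 2310.

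No pairing of same-numbered libraries is stated. Deviations from the group means correlated at -0.07, -0.09 and -0.03 between same-numbered libraries, and none correlated best with its own number. With 3 libraries per group, whose deviations sum to 0, such values cannot show whether these libraries share a litter or day. With the replicate block 18 of the 38 genes passed, and the folding genes gave 10 rises. The calls of Pdia3, Sdf2l1, Asns and Herpud1 were lost there (adjusted p = 0.0692, 0.0525, 0.111 and 0.0844).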
